A study of Mus musculus with 3 samples.

Results

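The genes described here are 10 mouse genes of MHC class I antigen presentation and the immunoproteasome: H2-D1, H2-K1, B2m, Tap1, Tap2, Tapbp, Psmb8, Psmb9, Psmb10 and Psme1. They were followed through every probe set that the platform annotation lists under exactly 1 of these genes. That rule found 18 probe sets for 7 of the 10 genes, out of 45141 probe sets on the array and 17097 named genes. B2m, Tap1 and Tap2 have no probe set listed under their names in the annotation used here and were not analysed. Of the 18 probe sets, 9 are of types (_s_at or _x_at) designed in the knowledge that their probes can bind several transcripts, and these include the brightest probe sets of H2-D1 and H2-K1.

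The data are 3 single-colour Affymetrix arrays, 1 each for cells given an shRNA against HIF-2α (shHIF-2a), an shRNA against HIF-1α (shHIF-1a) and a control shRNA (shCTR). HIF-1α and HIF-2α are transcription factor subunits that cells degrade when oxygen is plentiful. All 3 groups were PaS+ mesenchymal progenitors from bone marrow of 8-week-old mice of the strain labelled C56Bl/6, sorted by FACS, kept in MesenCult medium at 1% oxygen for 7 days and exposed overnight to lentiviral vectors. RNA was taken 4 days after transduction. The hairpin sequences, the number of hairpins per gene and any second culture are not given in the labels. With 1 array per hairpin no difference was tested, and every difference below compares 2 arrays.

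Most nucleated cells cut cytosolic proteins into peptides with the proteasome and carry the peptides into the endoplasmic reticulum through the TAP transporter. There they load them onto class I heavy chains paired with beta-2-microglobulin for display to CD8+ T cells. Interferons induce alternative catalytic subunits that replace the constitutive ones in newly built proteasomes, along with many other genes of this route, so that stromal cells that display little antigen at rest can display more.

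Values are RMA intensities on a linear scale, and differences are on the log2 scale. The highest of 23 nonspecific control probe sets read 3.47, and values under that level were raised to it before a difference was taken. The probe set of highest mean level represents its gene, and a difference of at least 2-fold is the size used for counting. The pooled SD of a log2 difference between probe sets of 1 gene over 2710 genes was 0.36 when the shHIF-2a array was set against control, 0.29 for the shHIF-1a array and 0.18 between the hairpin arrays. It is a technical spread within a pair of arrays and holds nothing of the spread between cultures.

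The targeted genes check the labels. Hif1a read 332.4 on each of the arrays labelled shHIF-2a and shHIF-1a, against 352.1 on the control array. Its probe set did not separate the hairpins. Epas1, which encodes HIF-2α, read 3.21, 9.44 and 5.09 in the same order, dim on all 3 arrays and under the nonspecific level on the first. With that value raised to the level, its difference from control was −0.55 with the shHIF-2a hairpin and 0.89 with the shHIF-1a hairpin. The shHIF-2a-labelled array differed from the shHIF-1a-labelled array by −1.44. These differences rest on dim values. The arrays are therefore called shHIF-2a-labelled and shHIF-1a-labelled, and each direction rests on those labels. Of the 17097 named genes, 8256 were above the nonspecific level on every array. As a check of the cell type, 12 mesenchymal progenitor markers were listed, of which Ly6a had no probe set under its name alone. The other 11 markers were all above that level on every array. They were not level across arrays: with the shHIF-2a hairpin their median difference from control was −0.18, and Cxcl12 (−1.79) and Col1a1 (−1.44) were at least 2-fold lower, or 4 of the 11 after quantile or cyclic loess scaling. With the shHIF-1a hairpin the median was 0.12, or −0.01 after quantile normalization, and none passed 2-fold. Between the hairpins 9 of the 11 were lower on the shHIF-2a-labelled array, with a median of −0.50, and 4 of them (Lum, Col1a1, Cxcl12 and Pdgfrb) were past 2-fold. Of all 17097 named genes, 74 were at least 2-fold lower in that comparison, and 46 with the shHIF-2a hairpin against control. The summed levels of the 11 markers were 1354 on the shHIF-2a-labelled, 1699 on the shHIF-1a-labelled and 1638 on the control array. The part of this shift in the class I values was not tested.

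Promoter windows of 4 of the genes are shown because they hold short motifs bound by factors of the interferon and NF-κB pathways. All 7 measured genes were matched by symbol to windows of 250 bases before and 50 after the annotated start, from RefSeq on GRCm38.p6. Capitals mark a match on either strand to GGGNNTTCC (the core of κB sites), TTCNNNGAA (the GAS element bound by STAT factors) or a pair of GAAA with 2 bases between (the core of the interferon-stimulated response element, ISRE). The H2-K1 window (chr17:34000298-34000597, minus strand) and the H2-D1 window (chr17:35262844-35263143, plus strand) each hold 1 κB match. The Psmb8 window (chr17:34197945-34198244, plus strand) holds a GAS match and the Psme1 window (chr14:55578244-55578543, plus strand) an ISRE match.
H2-K1: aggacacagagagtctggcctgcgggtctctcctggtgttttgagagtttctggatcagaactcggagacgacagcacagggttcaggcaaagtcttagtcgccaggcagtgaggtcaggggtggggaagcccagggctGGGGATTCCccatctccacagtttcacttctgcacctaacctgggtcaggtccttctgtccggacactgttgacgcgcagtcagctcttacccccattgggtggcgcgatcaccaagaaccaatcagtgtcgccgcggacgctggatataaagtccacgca
H2-D1: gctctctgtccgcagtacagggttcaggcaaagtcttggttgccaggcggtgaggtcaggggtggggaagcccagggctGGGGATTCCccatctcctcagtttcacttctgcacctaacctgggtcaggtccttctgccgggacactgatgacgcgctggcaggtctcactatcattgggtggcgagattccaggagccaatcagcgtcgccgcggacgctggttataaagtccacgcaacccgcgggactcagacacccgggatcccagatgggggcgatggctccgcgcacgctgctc
Psmb8: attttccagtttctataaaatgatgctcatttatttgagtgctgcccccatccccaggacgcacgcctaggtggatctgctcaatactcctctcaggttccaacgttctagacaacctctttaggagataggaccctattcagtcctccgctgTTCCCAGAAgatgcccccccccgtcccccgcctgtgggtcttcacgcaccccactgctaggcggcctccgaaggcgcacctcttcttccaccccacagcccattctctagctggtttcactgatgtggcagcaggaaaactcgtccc
Psme1: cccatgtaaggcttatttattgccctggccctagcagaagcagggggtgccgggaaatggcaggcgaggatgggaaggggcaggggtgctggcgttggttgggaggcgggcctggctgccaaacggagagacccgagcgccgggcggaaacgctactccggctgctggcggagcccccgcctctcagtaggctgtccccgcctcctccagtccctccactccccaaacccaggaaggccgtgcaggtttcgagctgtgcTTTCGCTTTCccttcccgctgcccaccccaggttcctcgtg

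The κB match began 111 bases before the annotated start in H2-K1 and 171 bases before it in H2-D1. The H2-K1 and H2-D1 windows were 87.9% identical over the 240 aligned positions they share, and the matched letters were the same in both. The promoter table holds 2 windows for H2-K1, and the one shown reaches farther upstream. The RefSeq gene H2-K1 extends to 34000619, beyond the upstream end of the window shown. The whole window, with its κB match, thus lies inside that gene. Distances for H2-K1 are from the start behind the window shown. The GAS match of Psmb8 began 97 bases before the start, and the ISRE match of Psme1 began 10 bases into the transcript. Of the 32851 promoter windows in the table, 5.82% held the κB letters, 8.30% the GAS letters and 3.44% the ISRE letters.

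The core of HIF sites was searched as ACGTG and GCGTG on both strands. Windows of 5 of the 7 genes (H2-D1, H2-K1, Psmb8, Psmb9 and Psmb10) held GCGTG, against 32.4% of all windows, and that of Psmb10 held ACGTG, against 19.6%. The Tapbp window matched none of the motifs searched. Psmb9 and Tap1 stand head to head, with annotated starts 226 bases apart, and 275 bases of their windows overlap. Such matches describe exact letters and are not evidence of binding. Variants of these letters were not searched, so a window without a match may still hold a variant site.

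**Figure D1:**
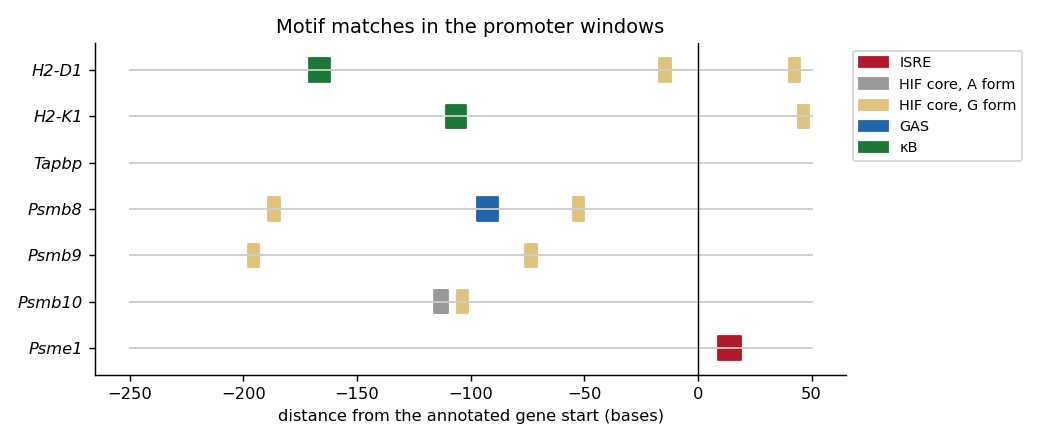
Motif matches in the promoter windows of the 7 measured genes, by distance from the annotated start in bases, each box spanning 1 match on either strand. Exact κB matches lie in H2-D1 and H2-K1 alone, the GAS match in Psmb8, the ISRE match in Psme1, and HIF cores in 5 of the 7 windows. Variant sites were not searched, and the H2-K1 window lies inside the RefSeq gene.

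Across the 7 measured genes the class I route was brighter with the hairpin labelled shHIF-2a than with control in 7 of 7 cases, and 3 of them, Psmb9, Psmb8 and H2-D1, were at least 2-fold higher. The background share of named genes at least 2-fold higher in this comparison was 3.9%, or 6.35% among the 8256 genes above the nonspecific level on all arrays, as the 7 genes were. With the hairpin labelled shHIF-1a, 6 of 7 were brighter than control and 2, Psmb9 and Psmb8, were at least 2-fold higher, against backgrounds of 2.07% and 3.32%. The median log2 difference from control over the 7 genes was 0.93 with the shHIF-2a hairpin and 0.75 with the shHIF-1a hairpin. Over the 8256 genes those medians were 0.12 and 0.09, and 64.7% of the genes with the shHIF-2a hairpin and 63.5% with the shHIF-1a hairpin were brighter than control, so the direction alone was the common one. Both comparisons use the same control array, so a high or low reading on it enters both.

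**Figure D2:**
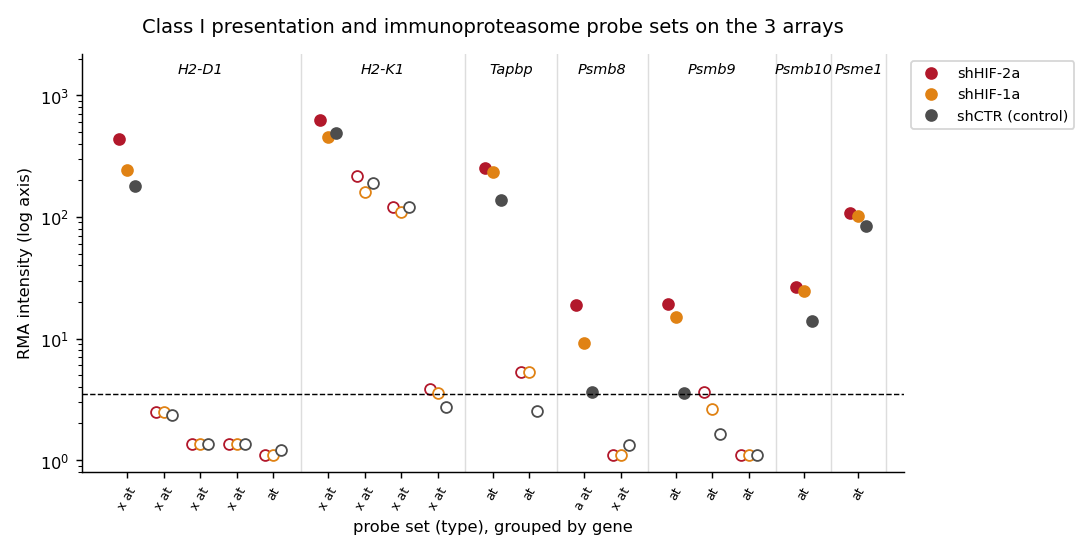
RMA intensity (log axis) of all 18 probe sets on the 3 arrays, grouped by gene. Filled points are the probe set that represents a gene and the dashed line is the nonspecific level of 3.47. Psmb8 and Psmb9 read just above that line on the control array and at 19.0 and 19.3 on the shHIF-2a-labelled array.

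The 2 largest differences from control were those of immunoproteasome subunits, Psmb9 and Psmb8. Psmb9, which encodes the inducible subunit that replaces the Psmb6 product, read 19.3 on the shHIF-2a-labelled array, 15.0 on the shHIF-1a-labelled array and 3.57 on the control array. It was 5.41-fold higher than control with the shHIF-2a hairpin and 4.20-fold higher with the shHIF-1a hairpin. These were the 24th and 20th highest differences from control among the 8256 genes. Its other probe sets were dim: 1 read 3.65 on the shHIF-2a-labelled, 2.61 on the shHIF-1a-labelled and 1.65 on the control array, and the other stood at 1.09 on each.

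Psmb8 encodes the inducible subunit that takes the place of the Psmb5 product, and mutations of its human counterpart cause an autoinflammatory disease. It read 19.0 on the shHIF-2a-labelled array, 9.17 on the shHIF-1a-labelled array and 3.61 on the control array, so the 3 arrays were well apart. Psmb8 was 5.27-fold higher than control with the shHIF-2a hairpin and 2.54-fold higher with the shHIF-1a hairpin. Its second probe set, of type _x_at, stayed under the nonspecific level, at 1.09, 1.09 and 1.32 in the same order. Psmb8 and Psmb9 both read barely above 3.47 on the control array, so their folds rest on dim values. With 32 added before log2 the differences with the shHIF-2a hairpin were 0.52 for Psmb8 and 0.53 for Psmb9, and with the shHIF-1a hairpin 0.21 and 0.40. With all probe sets of a gene averaged, Psmb8 alone stayed past 2-fold, at 1.20 with the shHIF-2a hairpin. A probe set under the nonspecific level on both arrays enters such a mean as 0, as the second of Psmb8 did. Psmb8 with the shHIF-1a hairpin was also under 2-fold after quantile normalization, at 0.94.

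Psmb10 encodes the inducible subunit that replaces the Psmb7 product. It read 26.8 on the shHIF-2a-labelled, 24.5 on the shHIF-1a-labelled and 14.0 on the control array, so both hairpin arrays were brighter than control by a similar amount. Its differences from control were 0.93 and 0.81, just under 2-fold. Psme1 encodes a subunit of the cap that opens the proteasome's gate and is itself induced by interferon. It read 107.0, 101.1 and 83.8 in the same order, with differences of 0.35 and 0.27, both within the pooled SD between probe sets.

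The constitutive subunits that these replace differed little. Psmb5 had differences from control of 0.17 with the shHIF-2a hairpin and −0.12 with the shHIF-1a hairpin. Psmb6 had 0.08 and 0.00, and Psmb7 had 0.23 and 0.17. None of the 3 was past 2-fold. With the shHIF-2a hairpin the difference of Psmb8 was thus 2.23 above that of Psmb5, that of Psmb9 was 2.36 above that of Psmb6, and that of Psmb10 was 0.70 above that of Psmb7. With the shHIF-1a hairpin the same gaps were 1.46, 2.07 and 0.63. Each gap is larger than the pooled SD between probe sets, but that SD is the spread of 1 difference and a gap holds the spread of 2. The gaps of Psmb8 and Psmb9 also rest on control values barely above the nonspecific level.

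**Figure D3:**
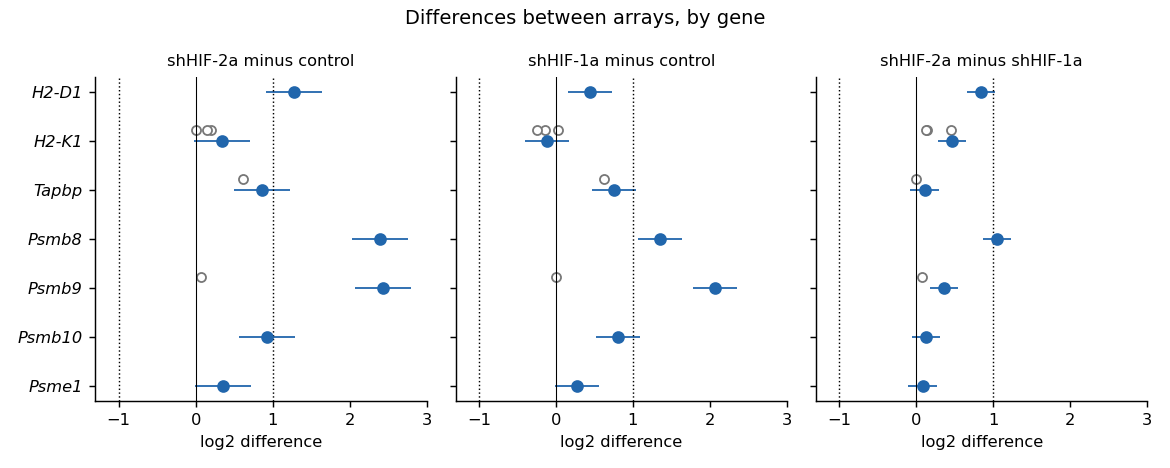
Log2 differences between arrays for the 7 genes. Filled points are the probe set that represents a gene, with bars of the pooled SD between probe sets of 1 gene; open circles are its other probe sets that pass the nonspecific level on at least 1 array, and dotted lines mark 2-fold. Psmb8 and Psmb9 lie past 2-fold against control with both hairpins, and H2-D1 with the shHIF-2a hairpin.

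Tapbp encodes tapasin, the chaperone that holds empty class I molecules at the TAP transporter and edits their peptides. It read 252.7 on the shHIF-2a-labelled array, 234.2 on the shHIF-1a-labelled array and 139.0 on the control array. It was 1.82-fold and 1.68-fold higher than control, and the hairpin arrays were close to each other. A dim second probe set of Tapbp, at 5.34 on both hairpin arrays and 2.52 on the control array, ran the same way.

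The class I heavy chains differed from control by unequal amounts, each read on a probe set of type _x_at. Whether the loci themselves differ was not tested. H2-D1, the D-locus chain, read 436.0 on the shHIF-2a-labelled, 243.9 on the shHIF-1a-labelled and 180.1 on the control array on its only bright probe set, of type _x_at. It was 2.42-fold higher than control with the shHIF-2a hairpin and 1.35-fold higher with the shHIF-1a hairpin. Its other 4 probe sets lay under the nonspecific level on all 3 arrays, between 1.09 and 2.49, so 1 cross-hybridising probe set carries the value. Without _s_at and _x_at probe sets H2-D1 had no reading above that level and its difference was 0. With its 5 probe sets averaged the difference with the shHIF-2a hairpin was 0.26, a mean that the 4 dim probe sets enter as 0.

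H2-K1, the K-locus chain, read 628.1 on the shHIF-2a-labelled, 455.4 on the shHIF-1a-labelled and 493.7 on the control array. Its differences from control were 0.35 and −0.12, both within the pooled SD between probe sets. A second probe set of H2-K1 read 216.6, 159.0 and 188.4 in the same order, and another read 121.8, 110.1 and 121.8. On these 3 bright probe sets the shHIF-1a-labelled array was the dimmest. The fourth was near the nonspecific level, at 3.85, 3.54 and 2.75. All 4 probe sets of H2-K1 are of type _x_at, so other class I transcripts may contribute to each.

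The direct comparison of the hairpins leaves out the shared control array. All 7 genes were brighter with the shHIF-2a hairpin than with the shHIF-1a hairpin, with a median log2 difference of 0.36, against 0.00 over the 8256 genes, of which 43.6% were brighter. Psmb8 was past 2-fold, at 2.07-fold, against backgrounds of 0.614% of all named genes and 0.824% of the 8256. H2-D1 followed with a difference of 0.84, H2-K1 with 0.46 and Psmb9 with 0.36. Those of Psmb10 (0.13), Tapbp (0.11) and Psme1 (0.08) were smaller than the pooled SD of 0.18 between probe sets. The order of the genes thus differed from that against control, where Psmb9 and Psmb8 led and H2-K1 was among the last. Psmb8 was under 2-fold here with 32 added before log2 (0.31) or with its probe sets averaged (0.52).

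Other genes of the class I route were read from lists. Of 13 companions (regulators, chaperones and further proteasome caps), 11 had a probe set. With each hairpin 3 of the 11, Irf9, Erap1 and Stat2, were at least 2-fold higher than control and none was at least 2-fold lower. The share of all named genes at least 2-fold higher was 3.9% with the shHIF-2a hairpin and 2.07% with the shHIF-1a hairpin. Erap1, the aminopeptidase that trims peptides in the endoplasmic reticulum, read 35.6 on the shHIF-2a-labelled, 17.9 on the shHIF-1a-labelled and 4.95 on the control array. Irf9 and Stat2 encode components of the complex that carries the type I interferon signal. Irf9 read 60.4, 48.3 and 7.74 in the same order and Stat2 read 17.1, 12.4 and 3.12, the last under the nonspecific level.

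Nlrc5, the transactivator of class I genes, passed the nonspecific level on the shHIF-2a-labelled array alone, at 4.87, against 1.58 on the shHIF-1a-labelled and 0.98 on the control array. Taken against the nonspecific level, it was 1.40-fold higher than control there, a log2 difference of 0.49. That difference was 0.05 after quantile normalization and 0.36 after cyclic loess. Irf1, an interferon-induced activator of several class I route genes, read 18.7 on each hairpin array and 10.6 on the control array, a difference of 0.82. Psme2, whose product forms the cap together with that of Psme1, read 120.3, 117.2 and 84.6, with differences of 0.51 and 0.47. The general chaperones of class I folding were nearer 0: Canx (calnexin) had differences of 0.03 and 0.07, and Calr (calreticulin) had −0.26 and 0.14.

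Of 18 other class I and class I-like chains, 12 had a probe set and 8 of these passed the nonspecific level. H2-Q4, a nonclassical class I chain, was past 2-fold with the shHIF-2a hairpin, at 24.4 on the shHIF-2a-labelled, 15.0 on the shHIF-1a-labelled and 9.58 on the control array, though not after quantile normalization. H2-T10 read 117.4, 129.0 and 73.4 in the same order on a probe set of type _s_at. H2-T23, which encodes the mouse Qa-1 molecule, read 361.6, 340.2 and 322.3, so it was bright with differences of 0.17 and 0.08. The median of the 12 genes, 4 of them set to 0 by the floor, was 0.00 with the shHIF-2a hairpin and 0.07 with the shHIF-1a hairpin. Over the 8 detected genes it was 0.08 and 0.30, with 4 and 7 of the 8 above 0.

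The MHC class II route was mostly not detected. Of 8 genes, H2-Ab1 alone passed the nonspecific level, and it was dimmer on both hairpin arrays, at 63.3 and 60.4 against 101.1 on the control array. Its probe set is of type _s_at, so other transcripts may contribute to that reading. Cd74, the class II invariant chain, and Ciita, the class II transactivator, stayed under the level on all arrays. Of 11 haematopoietic and macrophage markers, Cd14 passed the level on every array, at 93.2, 87.8 and 93.4, and Cd68 on the shHIF-2a-labelled array, at 7.24 against 3.02 on the shHIF-1a-labelled and 1.59 on the control array. The leukocyte marker Ptprc read 1.05 on each, and the summed level of the 11 markers was 110.7, 101.0 and 106.4 in the same order, most of it Cd14, so that sum says little of the other markers. Endothelial markers summed to 10.8, 10.7 and 10.7, with Egfl7 alone above the nonspecific level, and neither of 2 erythroid markers passed it. In bulk RNA, more cells of a kind and more RNA per cell cannot be told apart. The part that cells marked by Cd68 had in the class I differences was not tested.

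Type I interferon response genes were set beside the class I route as a further list. Of 15 genes 10 had a probe set. With either hairpin 8 of these were at least 2-fold higher than control, against 3.9% (shHIF-2a) and 2.07% (shHIF-1a) of all named genes. Since 8 of the 10 were under the nonspecific level on the control array, their differences are taken against that level. The median so taken was 3.90 with the shHIF-2a hairpin and 2.43 with the shHIF-1a hairpin, and with values as deposited 4.59 and 3.18. All 7 class I route genes were above the nonspecific level on the control array, against 2 of the 10 interferon response genes. These counts depend in part on values near that level of 3.47. Psmb8 (3.61) and Psmb9 (3.57) were just above it on the control array. Of the interferon response genes, Irf7 (3.91) was a little above it and Mx2 (3.03) a little under it.

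**Figure D4:**
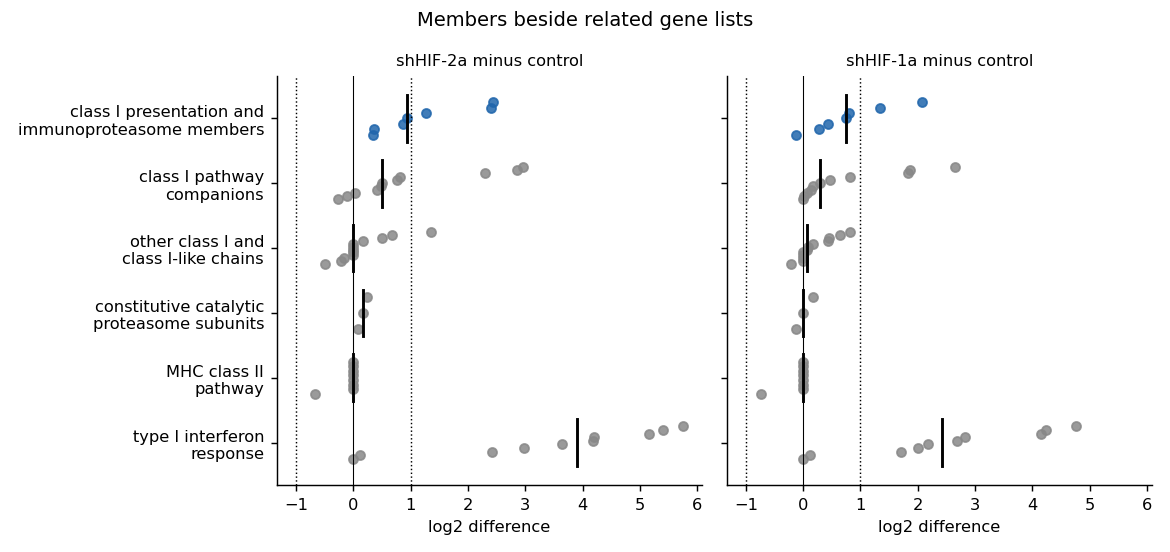
Log2 differences from control for the 7 measured class I route genes and 5 related lists, 1 point per gene and a black bar at the median. The 7 genes have medians of 0.93 and 0.75, the constitutive catalytic subunits 0.17 and 0.00, and the interferon response genes 3.90 and 2.43, mostly against control values raised to the nonspecific level.

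Among 8212 genes outside these lists and above the nonspecific level on all arrays, those whose pair of differences from control lay nearest the median pair of the 7 genes were Rabepk, Oma1, Fam160a2, Zfyve26 and Twf2. Their distances were 0.02 to 0.03 on the log2 scale, over 3 arrays that give only 2 differences from control. Oma1, for example, read 25.2 on the shHIF-2a-labelled, 22.3 on the shHIF-1a-labelled and 13.3 on the control array.

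In the whole table, 36.7% of probe sets on the shHIF-2a-labelled, 36.2% on the shHIF-1a-labelled and 34.2% on the control array were above the nonspecific level, and having only 3 arrays limits how precise any value is. Of all named genes, 666 were at least 2-fold higher and 46 lower than control with the shHIF-2a hairpin, or 261 higher and 89 lower after quantile normalization. With the shHIF-1a hairpin 354 were higher and 5 lower, or 121 higher and 10 lower after quantile normalization. The control array had fewer bright values, with upper quartiles of 13.9 on the shHIF-2a-labelled, 13.0 on the shHIF-1a-labelled and 9.81 on the control array. After cyclic loess scaling the medians of the 7 genes were 0.84 and 0.65, and after quantile normalization 0.81 and 0.57, where the medians of the 8256 genes were −0.04 with either hairpin.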

How the data were processed

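The authors deposited 1 table of probe set intensities for 3 arrays, linear in scale as its range of 0.63 to 1747 shows. The submitters' processing notes name RMA, with no version or settings. RMA summarises probes over the arrays together, and 16.1% to 31.2% of the 8256 genes above the nonspecific level have exactly equal values on a pair of arrays, which can hide small differences. Each array was assigned to its group by title, with 1 array in each group.

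Log2 was taken with no further scaling. Genes were named from the platform annotation, which lists 28898 probe sets with 1 gene and 551 with several; 15588 others are unnamed. Entrez identifiers matched 28689 of them to the RefSeq table of GRCm38.p6, used for names. Differences, counts and medians were computed in Python 3.11.15 with pandas 2.3.3, and the scaling alternatives used limma 3.58.1 in R 4.3.3. The code of the fold rule was run on simulated data with changes set well past the threshold. That run does not show how the rule performs on these arrays. Biopython 1.88 aligned the promoter windows. Alternatives were the floor, an added 32, minimum levels of 16 and 64, the choice of probe set, the scaling and a 1.5-fold threshold. The genes named are all members, the targeted genes, genes of the lists and the 5 nearest patterns. The members and lists were chosen with earlier results of these data known. No paired analysis was possible because each group holds 1 array.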

Additional observations from a re-analysis of the deposited data

Results flagged for a closer look

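The annotation assigns 5 further probe sets to several genes at once, H2-K1 and H2-D1 both among them, and these were left out of the comparisons above. On 4 of them the signal exceeded control by at least 2-fold with the shHIF-2a hairpin, the size for which they were flagged. The share of all named genes at least 2-fold higher was 3.9%. The log2 differences were 1.32, 2.20, 1.504 and 1.35. The first of these read 420.6 on the shHIF-2a-labelled, 228.2 on the shHIF-1a-labelled and 168.1 on the control array, and the second, of type _at, read 43.7, 18.4 and 9.52 in the same order. The fifth was at 1.09 on every array.

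H2-K1 lay on opposite sides of control with the hairpins, at 0.35 with the shHIF-2a hairpin and −0.12 with the shHIF-1a hairpin, a gap of 0.46. This difference was not tested, since each hairpin has 1 array, and both values are within the pooled SD between probe sets.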

How the results depend on the processing

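The number of class I route genes past 2-fold (3 with the shHIF-2a hairpin, 2 with the shHIF-1a hairpin and 1 between the hairpins) was unchanged with cyclic loess. With no floor or a minimum of 16 the number could not change. All 7 genes were above the nonspecific level on every array and reached 16 on at least 1 array. The number became 1, 0 and 0 with 32 added before log2, with a minimum of 64 (which leaves 4 of the 7 genes) and with all probe sets averaged. Quantile normalization gave 1 with the shHIF-1a hairpin, and a 1.5-fold threshold gave 5, 4 and 2. Without _s_at and _x_at probe sets H2-K1 has no reading, and the count with the shHIF-2a hairpin was 2 of 6. The medians of 0.93, 0.75 and 0.36 became 0.52, 0.30 and 0.13 with 32 added; the median with the shHIF-1a hairpin was 0.35 with a minimum of 64, and that between the hairpins was 0.14 with averaging and 0.12 without _s_at and _x_at probe sets. Of 123 alternative values for single genes, 99 moved by less than the pooled SD between probe sets, 24 by more, and no difference past 2-fold changed sign. Part of the 99 could not move, so the tally does not measure stability. Removing the floor left all 7 genes as they were. Averaging cannot change Psmb10 or Psme1, which have 1 probe set each. Leaving out _s_at and _x_at probe sets cannot change Tapbp, Psmb8, Psmb9, Psmb10 or Psme1.

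Over all named genes the counts past 2-fold of 712, 359 and 179 depended strongly on dim genes. They were 45, 17 and 18 with 32 added, 69, 29 and 46 with a minimum of 64, and 1784, 1090 and 616 at 1.5-fold. For each hairpin against control they were 380 and 171 with a minimum of 16, 455 and 204 with averaging, and 350 and 131 after quantile normalization. The shHIF-1a count was 603 with no floor and 230 after cyclic loess. A higher minimum tests fewer genes, and an added constant shrinks dim differences by construction; for scaling and averaging the cause was not tested. No paired analysis was possible because each group holds 1 array.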

Other observations

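The class I-like chains Fcgrt and Hfe were dimmer on the shHIF-2a-labelled than on the shHIF-1a-labelled array. Fcgrt, the heavy chain of the neonatal Fc receptor that recycles antibody and albumin, read 38.5 on the shHIF-2a-labelled, 61.3 on the shHIF-1a-labelled and 54.4 on the control array. Hfe, whose product regulates iron uptake, read 80.8, 123.0 and 90.4 in the same order. The log2 differences between the shHIF-2a-labelled and shHIF-1a-labelled arrays were −0.67 for Fcgrt and −0.61 for Hfe, against 0.84 for H2-D1 and 0.46 for H2-K1. Cd1d1, which presents lipids, had a difference of −0.08 in that comparison, within the pooled SD between probe sets. These genes were named after their values were seen, and with 1 array for each hairpin the differences were not tested.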
